A study of Mus musculus with 12 samples.

Results

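The BMP and TGF-beta pathway was followed in calvarial bone through 38 genes chosen by name: 9 BMP and GDF ligands, 4 TGF-beta and activin ligands, 8 receptors, 8 SMADs, 5 antagonists and 4 ID targets. All 38 had a value among the 23715 genes measured, and 36 belonged to the 13059 genes expressed highly enough to be tested. Total RNA was sequenced from 12 newborn C57BL/6 mice, 3 in each of 4 groups. The *Med23* set compared Med23MSC-/- mice (labelled P-KO), in which Prx1-Cre, active in limb and craniofacial mesenchyme, acts on floxed *Med23*, with control littermates (P-Ctrl, genotype given as WT, while the study names *Med23* fl/fl mice as its controls). The *Runx2* set compared Runx2+/- mice (R-Het), which carry 1 mutant copy of *Runx2* in every cell, with WT littermates (R-WT). The tissue is calvaria in the labels, and parietal bone of day 2 after birth in the study's methods. The values were FPKM, which count fragments relative to transcript length and library depth.

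BMP and TGF-beta ligands are secreted dimers that bring type I and type II receptor kinases together at the cell surface. BMP-type receptors phosphorylate SMAD1, SMAD5 and SMAD9, TGF-beta and activin receptors phosphorylate SMAD2 and SMAD3, and both branches share SMAD4 as their partner in the nucleus. Extracellular antagonists such as noggin, and the inhibitory SMADs SMAD6 and SMAD7, hold the signal back, and the ID genes are among the direct targets of BMP signalling. In the skull vault, BMPs drive osteoblast differentiation, and RUNX2 is the transcription factor that commits cells to it, while MED23 is a subunit of the Mediator complex that links transcription factors to RNA polymerase II.

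Neither targeted transcript was lower in the libraries labelled as its own mutant. *Med23* was at 5.99, 5.42 and 4.54 FPKM in control mice (mean 5.32 ± 0.732) and 4.89, 5.74 and 5.28 FPKM in Med23MSC-/- mice (mean 5.3 ± 0.425). *Runx2* was at 29.8, 37.7 and 27.3 FPKM in WT mice (mean 31.6 ± 5.39) and 34.3, 30.4 and 35.7 FPKM in Runx2+/- mice (mean 33.5 ± 2.76). Their log2 fold changes were 0.00 and 0.09 (limma adjusted p = 0.997 and 0.796). In the study only some exons of *Med23* are floxed, and FPKM of whole transcripts does not measure those exons apart. The study reports from western blots that most MED23 protein was lost in mesenchymal stem cells of mutant bone marrow. In the *Med23* set *Runx2* was at 38, 38 and 30.5 FPKM in control mice (mean 35.5 ± 4.31) and 23.7, 27.7 and 28.7 FPKM in Med23MSC-/- mice (mean 26.7 ± 2.64). There every mutant lay below the controls (log2 fold change -0.40, adjusted p = 0.127). By real-time PCR on parietal bone of the same genotypes, the study reports *Runx2* as unchanged. Every direction below is that of the libraries as labelled. Means are given ± SD over the 3 mice of a group. Roughly 7760000 to 11700000 fragments stood behind each mouse. *Xist*, which is made in female cells, was at 37.8 FPKM or more in control mice 2 and 3 and WT mouse 1 and at or below 0.0663 FPKM in the other mice, so 3 libraries were female and both mutant groups were male. The defining genes of bone were present in every group, with the 10 osteoblast markers summing to between 25895 and 52325 FPKM in each mouse. Markers of skeletal muscle, which adheres to dissected bone, summed to between 24.98 and 1398 FPKM in control, 609.9 and 4214 FPKM in Med23MSC-/-, 1928 and 5661 FPKM in WT and 28.4 and 191 FPKM in Runx2+/- mice.

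In the 6 control and WT mice, the levels of the members spanned 3 orders of magnitude. *Id3*, *Id2* and *Id1*, whose proteins block the DNA binding of basic helix-loop-helix factors, stood highest, with medians of 355, 245 and 153 FPKM and ranges that did not overlap with one another. *Gdf10*, also known as *Bmp3b*, was the highest ligand (median 66.3 FPKM, range 48.9 to 74.0), followed by *Tgfb3* (51.2 FPKM) and *Tgfb1* (41.3 FPKM), whose ranges overlapped with that of *Gdf10*. Among the receptors, *Tgfbr2*, the ligand-binding TGF-beta receptor, was highest (median 59.0 FPKM), and *Bmpr1a*, the main type I BMP receptor, reached 36.2 FPKM. *Bambi*, a decoy receptor that lacks a kinase, was the highest antagonist at 30.8 FPKM, and *Smad4* the highest SMAD at 27.1 FPKM. The classical osteogenic ligands were far lower, with medians of 7.71 FPKM for *Bmp4*, 5.19 FPKM for *Bmp2*, 4.88 FPKM for *Bmp7* and 3.38 FPKM for *Bmp6*. *Bmpr1b*, a type I BMP receptor (0.298 to 0.917 FPKM over the 12 mice), and *Grem1*, a secreted BMP antagonist (0 to 0.610 FPKM), were too low for a test.

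**Figure D1:**
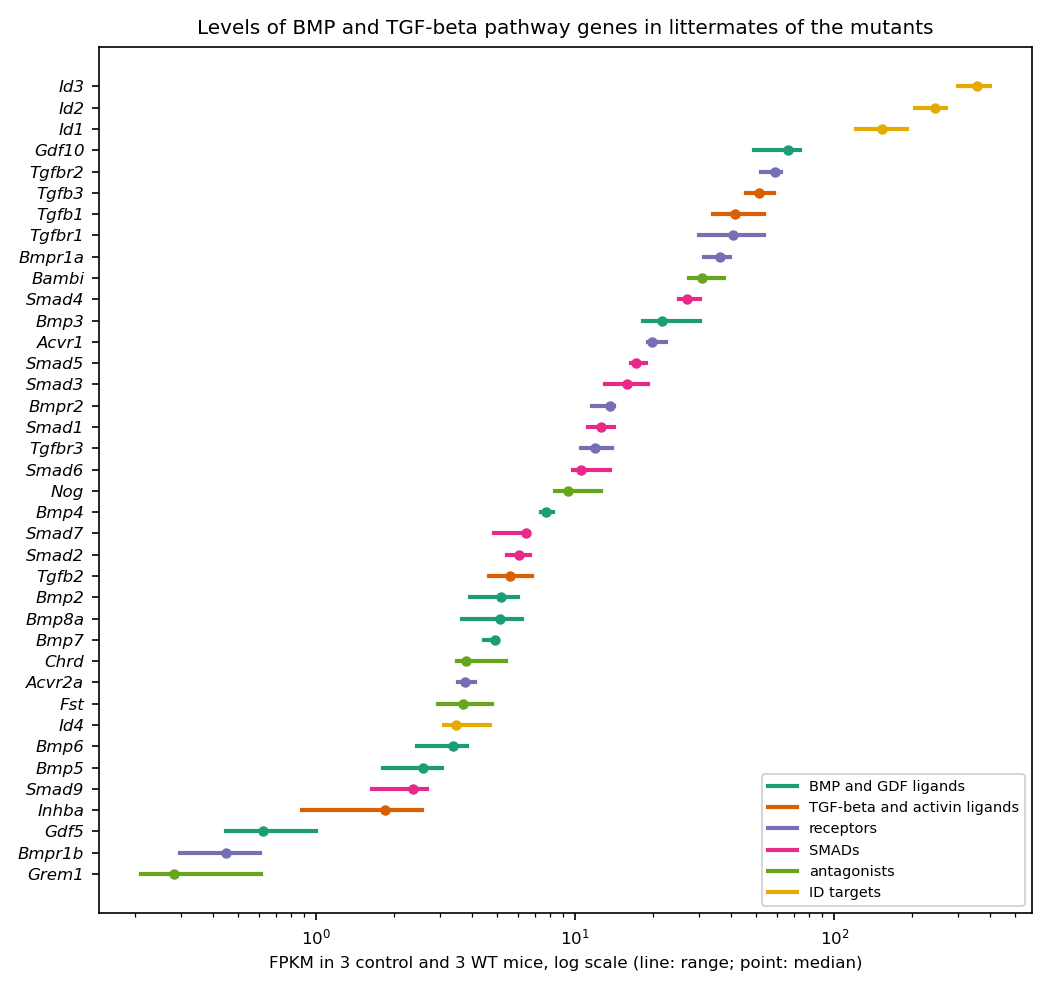
Levels of the 38 BMP and TGF-beta pathway genes in the 6 littermates of the mutants (3 control, 3 WT), on a log axis of FPKM, where lines span the lowest to the highest mouse, points mark the median and colours mark the class. *Id3*, *Id2* and *Id1* stand above all other members, and *Gdf5*, *Bmpr1b* and *Grem1* lie lowest.

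Each mutant group was then compared with its own littermates to ask whether pathway components differed with either genotype. After adjustment over all tested genes, none of the 36 tested members passed an adjusted p of 0.05 in limma, in the *Med23* set, in the *Runx2* set or in the difference between them. Among all genes, 1.57% passed in the *Med23* set (205 genes, 132 higher and 73 lower), 1.89% passed in the *Runx2* set (247 genes, 52 higher and 195 lower) and 0.153% in the difference (20 genes, 8 higher and 12 lower). When the values were rescaled to the same sum per mouse, the split in the *Med23* set turned to 42 higher and 65 lower and that of the difference to 20 higher and 17 lower. At these background shares fewer than 1 of 36 genes would pass, so the count of 0 does not set the members apart. With all 12 mice in 1 fit, 6 of the 36 members passed in the *Med23* set, 3 higher and 3 lower. In that fit 717 of the 13059 genes passed there, 527 higher and 190 lower, and 0 members passed in the *Runx2* set.

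At an unadjusted p under 0.05, 13 of the 36 members (36.1%) stood out in the *Med23* set, 7 higher and 6 lower, against 21.3% of all tested genes (15.7% higher and 5.63% lower). After rescaling to the same sum, 8 members did so (22.2%, against 16.9% of all genes), 2 higher and 6 lower. Then 15 rather than 21 members had a log2 fold change above 0. In the *Runx2* set, 6 members (16.7%) did so, 5 higher and 1 lower, against 15.4% of all genes (7.09% higher and 8.32% lower). The difference between the sets had 6 such members too (16.7%), 1 higher and 5 lower, against 15.3% of all genes (11.1% higher and 4.17% lower). After rescaling it had 8, 0 higher and 8 lower (22.2%, against 12.3% of all genes). In the male libraries alone, which leave 1 control mouse whose spread is taken from the others, the counts were 9 members (25.0%, against 16.5% of all genes) and 5 members (13.9%, against 10.8%). The 3 mutant mice lay wholly above or below their littermates for 12 members in the *Med23* set, 6 each way (27.3% of all genes, 19.6% above and 7.68% below), and for 11 members in the *Runx2* set, 9 above and 2 below (21.1% of all genes, 10.7% above and 10.4% below). The median log2 fold change of the members was 0.06 in the *Med23* set, equal to that of all genes, and 0.13 in the *Runx2* set, where that of all genes was 0.02. Rescaling to the same sum turned both medians of the *Med23* set to -0.03, and in the difference between the sets it moved the median of all genes from 0.04 to -0.09 and that of the members from -0.08 to -0.21. Of the 36 members, 28 were above 0 in the *Runx2* set, as were 56.1% of all genes, and the comparable count in the *Med23* set was 21, with 61.3% of all genes.

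**Figure D2:**
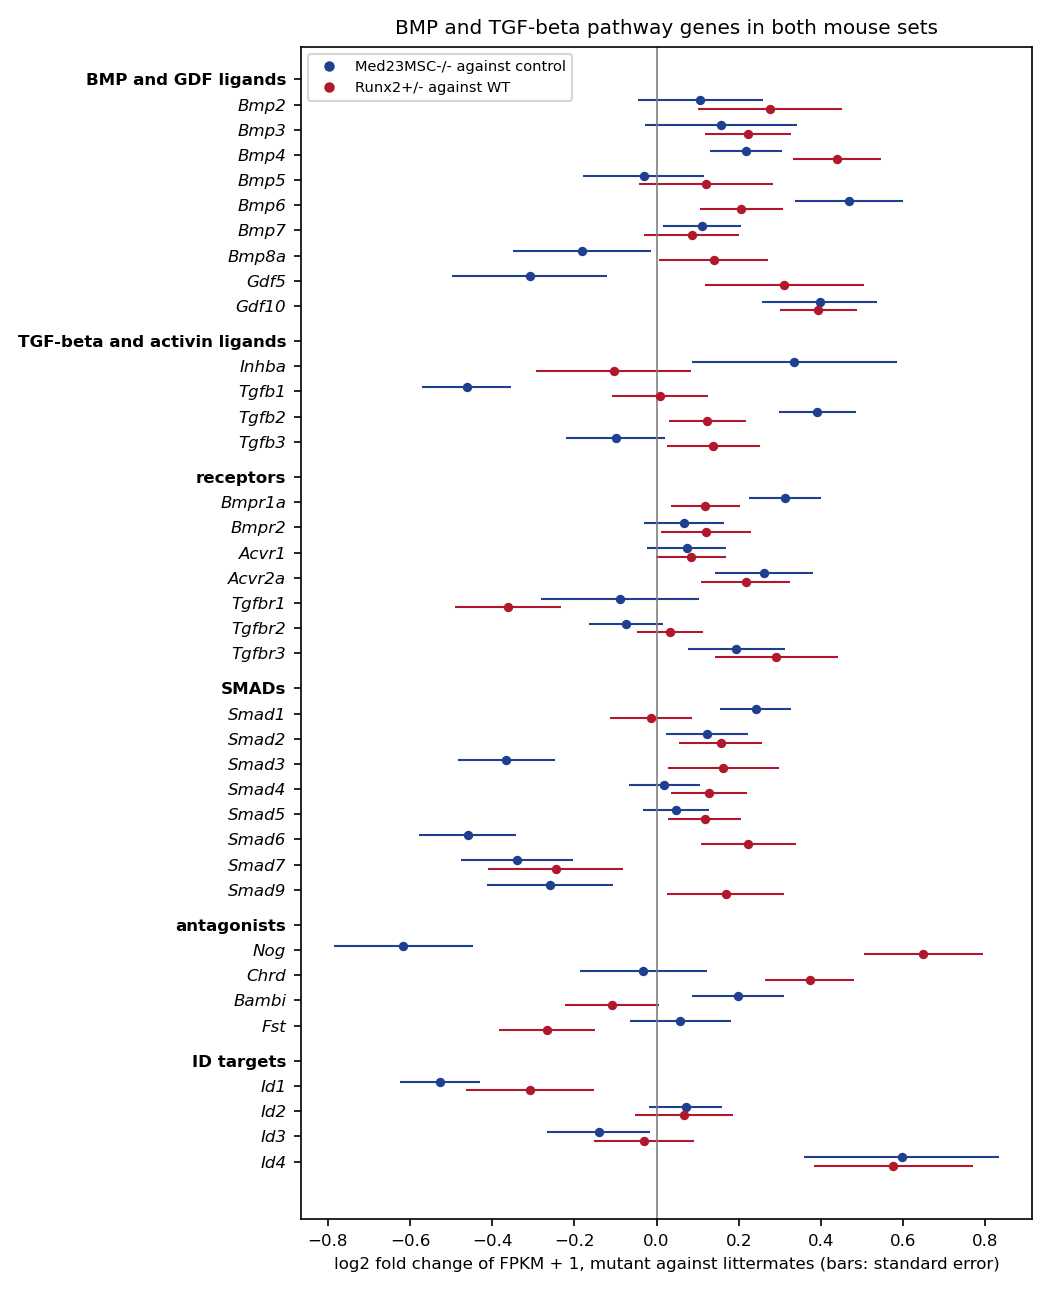
Log2 fold change of FPKM + 1 of the 36 tested members, with the standard error as bars, for Med23MSC-/- against control mice (blue) and Runx2+/- against WT mice (red), grouped by class. *Nog* lies at -0.62 in the first set and 0.65 in the second, *Id4* near 0.6 in both, and most members lie within 0.4 of 0.

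The BMP and GDF ligands leaned above 0 in Runx2+/- mice, as did other genes of the pathway. All 9 had a log2 fold change above 0 in the *Runx2* set (median 0.22), as did 56.1% of all genes. Of 49 further pathway genes tested in the same fits, 40 were above 0 in that set and 9 below. Those above included all 10 other extracellular antagonists and modulators and all 7 genes of latent TGF-beta binding and storage. 5 of them (*Bmp2*, *Bmp3*, *Bmp4*, *Bmp6* and *Gdf10*) were higher in all 3 Runx2+/- mice than in any WT mouse, against 10.7% of all genes. In the *Med23* set 6 of 9 ligands were above 0 (median 0.11), which does not set them apart from the 61.3% of all genes. There 3 ligands, *Bmp4*, *Bmp6* and *Gdf10*, were higher in all 3 mutants, against 19.6% of all genes. No ligand reached an adjusted p of 0.05 in either set.

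*Bmp4*, a potent osteogenic ligand, was at 8.18, 7.7 and 7.4 FPKM in control mice (mean 7.76 ± 0.393) and 9.74, 8.89 and 8.93 FPKM in Med23MSC-/- mice (mean 9.19 ± 0.481). In the other set it was at 7.87, 7.72 and 7.41 FPKM in WT mice (mean 7.67 ± 0.233) and 9.88, 10 and 12.5 FPKM in Runx2+/- mice (mean 10.8 ± 1.5). Both groups of mutants lay above their littermates without overlap, with log2 fold changes of 0.22 (standard error 0.09, limma adjusted p = 0.216) in the *Med23* set and 0.44 (0.11, adjusted p = 0.0907) in the *Runx2* set. After rescaling, the change in the *Med23* set was 0.12 with an unadjusted limma p of 0.281. Values in brackets below keep this order of log2 fold change, standard error and adjusted p, from the same fits. *Gdf10*, a ligand related to BMP3 that is rich in bone, was at 66.8, 65.8 and 48.9 FPKM in control mice (mean 60.5 ± 10.1) and 73.1, 76.8 and 88.6 FPKM in Med23MSC-/- mice (mean 79.5 ± 8.12). The *Runx2* set had 66.9, 74 and 65.3 FPKM in WT mice (mean 68.8 ± 4.6) and 82.6, 96.5 and 93 FPKM in Runx2+/- mice (mean 90.7 ± 7.21). The lowest mutant exceeded the highest littermate in both sets, and the log2 fold changes of 0.40 (0.14, adjusted p = 0.172) and 0.39 (0.09, adjusted p = 0.0859) were nearly equal. In the *Med23* set the change of *Gdf10* was 0.24 in the male libraries and 0.25 without control mouse 3 (adjusted p = 0.282 for the latter). After rescaling, the change of *Gdf10* there was 0.29 with an unadjusted limma p of 0.0936. *Bmp6*, an osteogenic ligand also known from iron regulation, was at 2.45, 3.19 and 3.26 FPKM in control mice (mean 2.97 ± 0.447) and 5.09, 4.06 and 4.3 FPKM in Med23MSC-/- mice (mean 4.48 ± 0.541). Its log2 fold change was 0.47 (0.13, adjusted p = 0.113). Values of 3.52, 3.84 and 3.51 FPKM in WT mice (mean 3.62 ± 0.185) and 3.94, 4.7 and 4.39 FPKM in Runx2+/- mice (mean 4.34 ± 0.378) gave a smaller difference of 0.21 (0.10, adjusted p = 0.388) in which the groups stayed apart. *Bmp2* shows how narrow a gap can be, since its WT mice lay between 5.18 and 5.2 FPKM. The Runx2+/- mice were at 5.67, 5.24 and 9.11 FPKM (log2 fold change 0.28, adjusted p = 0.516). *Bmp5*, *Bmp7*, *Bmp8a* and *Gdf5* overlapped between genotypes in both sets, with log2 fold changes from -0.31 to 0.31. Both ends of that range belong to *Gdf5*, a joint ligand that rests on about 3.42 to 29.5 fragments per mouse. Reads of *Bmp8a* and its near-identical copy *Bmp8b* may be shared, so that its value is uncertain.

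*Bmp4* and *Gdf10* were the ligands higher without overlap in both sets at an unadjusted limma p under 0.05 in the values as deposited. After rescaling, neither kept that p in the *Med23* set (0.281 and 0.0936). The stretches upstream of their starts are shown with the motifs that SMAD and RUNX proteins can bind. They are the 250 bases before the start in RefSeq (GRCm38.p6), at chr14:46390670-46390919 on the minus strand for *Bmp4* and chr14:33923337-33923586 on the plus strand for *Gdf10*. Capitals mark matches, on either strand, to GGCGCC (a GC-rich SMAD element), CAGAC (the SMAD box, GTCTG on the other strand) or TGTGGT (a RUNX core, ACCACA on the other strand).
Bmp4: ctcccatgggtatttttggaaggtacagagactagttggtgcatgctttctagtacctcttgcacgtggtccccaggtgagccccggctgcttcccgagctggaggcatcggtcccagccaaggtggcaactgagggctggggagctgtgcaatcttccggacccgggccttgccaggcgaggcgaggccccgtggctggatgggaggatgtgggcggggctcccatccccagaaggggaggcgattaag
Gdf10: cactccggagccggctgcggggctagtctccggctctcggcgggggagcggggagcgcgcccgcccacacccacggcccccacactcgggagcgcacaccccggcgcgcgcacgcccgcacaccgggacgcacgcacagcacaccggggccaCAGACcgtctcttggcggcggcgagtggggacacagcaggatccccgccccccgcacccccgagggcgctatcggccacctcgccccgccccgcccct
*Bmp4* held none of these motifs in this window, and *Gdf10* held 1 SMAD box 98 bases before its start. Of the 38 members, 25 had an entry in the promoter table, with 30 windows in all. Of these windows, 9 (30.0%) held GGCGCC, 13 (43.3%) held CAGAC and 0 held TGTGGT. Of all 32851 windows of the same length, 9.59%, 42.2% and 14.0% held these motifs. The members' windows were richer in G and C (median 65.2%) than all windows (52.4%), and the part of this base composition in the share of GGCGCC was not tested. A match of letters does not show binding.

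**Figure D3:**
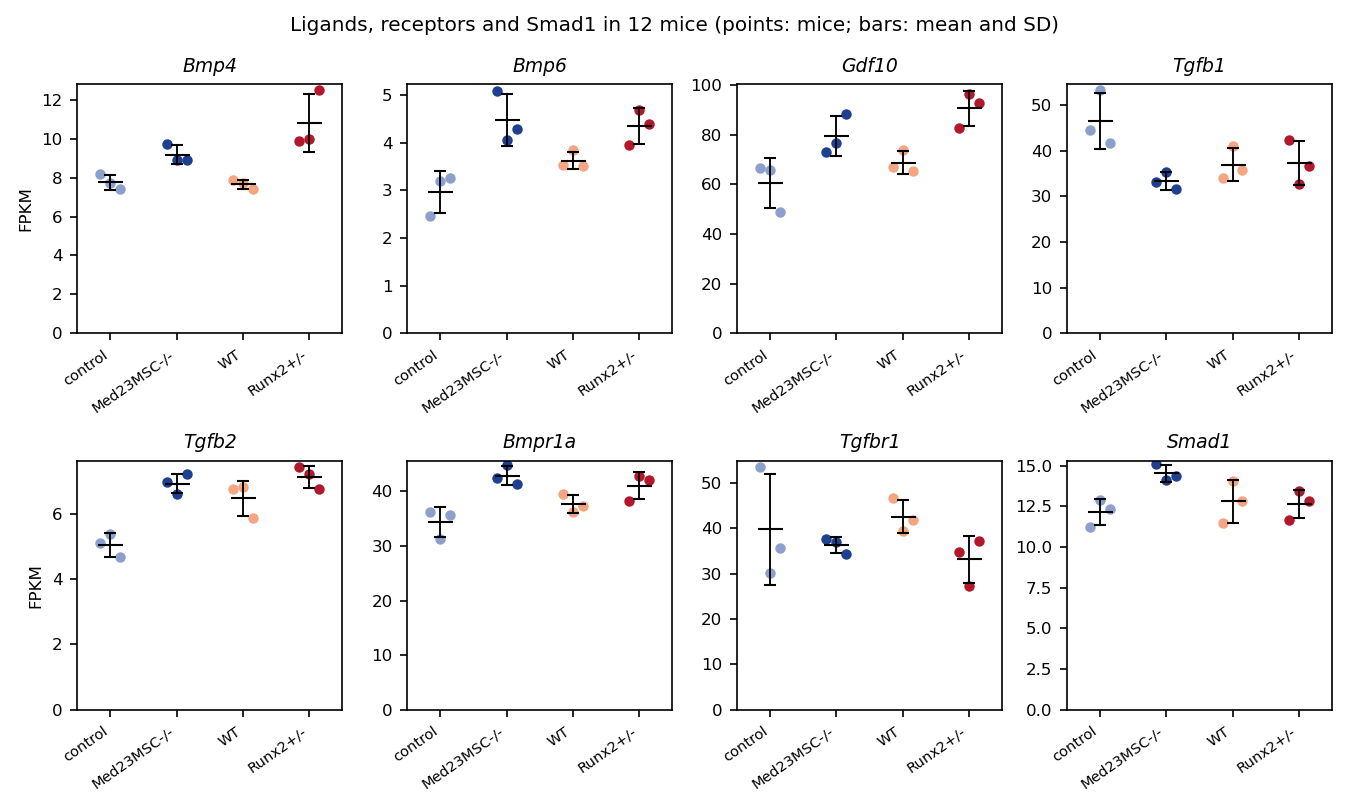
FPKM of 5 ligands (*Bmp4*, *Bmp6*, *Gdf10*, *Tgfb1*, *Tgfb2*), 2 receptors (*Bmpr1a*, *Tgfbr1*) and *Smad1* in the 12 mice by group, with 1 point per mouse and bars for mean and SD (n = 3). The Med23MSC-/- points lie above all control points in 6 panels and below them for *Tgfb1*, and *Tgfbr1* is the panel in which control mouse 1 (53.5 FPKM) stands apart.

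The TGF-beta ligands pointed in opposite directions in Med23MSC-/- mice. *Tgfb1*, the main isoform of bone matrix, was at 44.6, 53.4 and 41.7 FPKM in control mice (mean 46.5 ± 6.11) and 33, 35.4 and 31.6 FPKM in Med23MSC-/- mice (mean 33.4 ± 1.92). Every mutant lay below every control mouse (log2 fold change -0.46, standard error 0.11, limma adjusted p = 0.0816). *Tgfb2*, an isoform active in cranial sutures, was at 5.1, 5.37 and 4.66 FPKM in control mice (mean 5.04 ± 0.357) and 6.95, 6.6 and 7.21 FPKM in Med23MSC-/- mice (mean 6.92 ± 0.304). Here every mutant lay above (log2 fold change 0.39, 0.09, adjusted p = 0.0846). In Runx2+/- mice and their littermates, *Tgfb1* was at 33.9, 40.9 and 35.8 FPKM in WT mice (mean 36.9 ± 3.64) and 42.3, 32.8 and 36.6 FPKM in Runx2+/- mice (mean 37.2 ± 4.8). *Tgfb2* was at 6.75, 6.81 and 5.86 FPKM in WT mice (mean 6.47 ± 0.532) and 7.41, 7.23 and 6.76 FPKM in Runx2+/- mice (mean 7.13 ± 0.337). The groups of that set overlapped for both genes, with log2 fold changes of 0.01 and 0.12 (adjusted p = 0.979 and 0.585). The difference between the sets was -0.47 for *Tgfb1* (standard error 0.16, adjusted p = 0.203) and 0.27 for *Tgfb2* (0.12, adjusted p = 0.313), and neither passed. After rescaling, that of *Tgfb2* was 0.15 (adjusted p = 0.738). *Tgfb3* overlapped in both sets (-0.10 and 0.14, adjusted p = 0.679 and 0.614). *Inhba*, the activin A subunit, lay between 0.885 and 2.58 FPKM over all mice without a separation of groups.

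Of the 7 tested receptors, 5 were above 0 in the *Med23* set (61.3% of all genes), and 1 did not overlap between genotypes (27.3% of all genes). In the *Runx2* set 6 were above 0 (56.1%) and 2 did not overlap (21.1%), so these counts do not set the receptors apart. *Bmpr1a* was at 36.3, 31.3 and 35.7 FPKM in control mice (mean 34.4 ± 2.7) and 42.5, 44.9 and 41.3 FPKM in Med23MSC-/- mice (mean 42.9 ± 1.81). All 3 mutants lay above the controls (log2 fold change 0.31, standard error 0.09, limma adjusted p = 0.112). After rescaling, the change was 0.21 with an unadjusted limma p of 0.0565, and in the male libraries it was 0.24. The other set, with 39.6, 36.2 and 37.4 FPKM in WT mice (mean 37.7 ± 1.71) and 38.2, 42.9 and 42.1 FPKM in Runx2+/- mice (mean 41.1 ± 2.5), showed an overlap (0.12, adjusted p = 0.558). *Tgfbr1*, the type I TGF-beta receptor, was at 46.6, 39.4 and 41.8 FPKM in WT mice (mean 42.6 ± 3.7) and 34.9, 27.2 and 37.3 FPKM in Runx2+/- mice (mean 33.1 ± 5.27). Every Runx2+/- mouse lay below every WT mouse (-0.36, 0.13, adjusted p = 0.229), and without Runx2+/- mouse 2 the change was -0.23 (adjusted p = 0.422). In the *Med23* set it was at 53.5, 30.2 and 35.7 FPKM in control mice (mean 39.8 ± 12.2) and 37.7, 37 and 34.2 FPKM in Med23MSC-/- mice (mean 36.3 ± 1.82). The log2 fold change of -0.09 hung on control mouse 1, the male control. It was -0.55 (adjusted p = 0.149) in the male libraries alone, and 0.14 without that mouse. *Tgfbr2* stayed between 52.3 and 62.4 FPKM over the 12 mice, with log2 fold changes of -0.07 and 0.03. *Bmpr2* (0.07 and 0.12), *Acvr1* (0.07 and 0.08), *Acvr2a* (0.26 and 0.22) and the co-receptor *Tgfbr3* (0.19 and 0.29) lay slightly above 0 in both sets, and of these *Acvr2a* was higher in all 3 Runx2+/- mice.

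Of the 8 SMADs, 4 did not overlap between genotypes in the *Med23* set, 1 above and 3 below (27.3% of all genes, 19.6% above and 7.68% below). They were *Smad1*, a BMP effector, *Smad3*, a TGF-beta effector, and both inhibitory SMADs. In the *Runx2* set 0 SMADs stood apart in this way (21.1% of all genes). *Smad2*, *Smad4* and *Smad5* stayed within 0.16 of 0 in both sets. *Smad1* was at 11.2, 12.9 and 12.4 FPKM in control mice (mean 12.1 ± 0.828) and 15.1, 14.1 and 14.4 FPKM in Med23MSC-/- mice (mean 14.5 ± 0.507). All mutants lay above (0.24, standard error 0.09, limma adjusted p = 0.175), but after rescaling the change was 0.14 with an unadjusted p of 0.224. *Smad3* was at 19.1, 16.2 and 15.6 FPKM in control mice (mean 17 ± 1.91) and 13.3, 14.3 and 11.3 FPKM in Med23MSC-/- mice (mean 12.9 ± 1.54). All mutants lay below (-0.37, 0.12, adjusted p = 0.15). In the *Runx2* set both genes overlapped between genotypes, with log2 fold changes of -0.01 and 0.16 (adjusted p = 0.964 and 0.62). *Smad9*, the third BMP effector and the lowest SMAD, was at 1.56 to 2.81 FPKM over the 12 mice and overlapped in both sets.

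*Smad6*, which mainly restrains BMP signalling and is itself induced by it, was at 10.1, 13.6 and 11.4 FPKM in control mice (mean 11.7 ± 1.82) and 8.2, 8.51 and 7.81 FPKM in Med23MSC-/- mice (mean 8.17 ± 0.351). Every mutant lay below every control mouse (-0.46, standard error 0.12, limma adjusted p = 0.0977). In the male libraries, which drop 2 of the 3 controls, it was -0.27 (adjusted p = 0.357). The *Runx2* set, with 9.78, 10.9 and 9.92 FPKM in WT mice (mean 10.2 ± 0.622) and 14.2, 11.5 and 10.7 FPKM in Runx2+/- mice (mean 12.2 ± 1.85), had means the other way. Its groups overlapped by 1 mouse (0.22, 0.11, adjusted p = 0.412). The change in the *Med23* set minus that in the *Runx2* set was -0.68 (0.17, adjusted p = 0.0901), short of the threshold. *Smad7*, which restrains both branches, was at 6.53, 6.59 and 4.88 FPKM in control mice (mean 6 ± 0.972) and 3.92, 4.86 and 4.76 FPKM in Med23MSC-/- mice (mean 4.51 ± 0.512). All mutants again lay below the controls, by a narrow margin (-0.34, 0.14, adjusted p = 0.217). The *Runx2* set was at 5.27, 6.49 and 6.49 FPKM in WT mice (mean 6.08 ± 0.7) and 6.04, 3.66 and 5.44 FPKM in Runx2+/- mice (mean 5.05 ± 1.23) and overlapped (-0.24, adjusted p = 0.538).

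The largest difference between the sets among the members was that of 1 antagonist, *Nog*. As a class the 4 tested antagonists had a median difference of -0.05, with *Chrd* at -0.40, *Bambi* at 0.31 and *Fst* at 0.32. *Nog* encodes noggin, which binds BMP2, BMP4 and BMP7 and keeps them from their receptors, and it lies at chr11:89300638-89302559. It was at 8.34, 12.5 and 10.1 FPKM in control mice (mean 10.3 ± 2.1) and 6.42, 5.18 and 7.46 FPKM in Med23MSC-/- mice (mean 6.36 ± 1.14). The mutants averaged 0.616 times the controls and did not overlap with them (log2 fold change -0.62, standard error 0.17, limma adjusted p = 0.109), and in the male libraries the change was -0.36 (adjusted p = 0.458). Across the *Runx2* set *Nog* was at 8.45, 12.6 and 8.76 FPKM in WT mice (mean 9.94 ± 2.33) and 16.5, 14.8 and 16.5 FPKM in Runx2+/- mice (mean 15.9 ± 0.976). This put the mutants at 1.6 times the WT mean, again without overlap but upwards (0.65, 0.15, adjusted p = 0.0731). The difference between the changes was -1.27 (0.24, adjusted p = 0.0588), the widest of all 36 members and just short of the threshold. WT mouse 2, at 12.6 FPKM, was the WT mouse nearest the mutants, and without it the change in the *Runx2* set was 0.82 (adjusted p = 0.0365) and the difference -1.44 (adjusted p = 0.0332). Without control mouse 1 the difference was -1.40 (adjusted p = 0.0261), and in the male libraries alone it was -0.91 (adjusted p = 0.301). With 1 mouse left out, 1 of 6 limma fits passed in the *Runx2* set (adjusted p between 0.0365 and 0.243). For the difference 2 of 12 such fits passed (adjusted p between 0.0261 and 0.17). Over all 17 alternatives the difference stayed between -1.44 and -0.91. The gene rests on roughly 68.2 to 287 fragments per mouse, so counting error adds to the spread between mice.

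*Chrd* encodes chordin, another BMP-binding antagonist, and was at 3.49, 3.81 and 4.14 FPKM in WT mice (mean 3.81 ± 0.323) and 4.67, 5.79 and 5.25 FPKM in Runx2+/- mice (mean 5.24 ± 0.56). Each Runx2+/- mouse lay above each WT mouse (0.37, standard error 0.11, limma adjusted p = 0.151). The *Med23* set was at 3.68, 5.42 and 3.74 FPKM in control mice (mean 4.28 ± 0.987) and 4.72, 3.69 and 3.97 FPKM in Med23MSC-/- mice (mean 4.12 ± 0.533) and overlapped (-0.03, adjusted p = 0.932). *Fst*, the activin-binding follistatin, lay the other way in the *Runx2* set, at 3.98, 4.22 and 4.77 FPKM in WT and 2.99, 3.86 and 3.45 FPKM in Runx2+/- mice (-0.27, adjusted p = 0.326). *Bambi* overlapped in both sets (0.20 and -0.11). The antagonists thus had no common direction in either set.

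**Figure D4:**
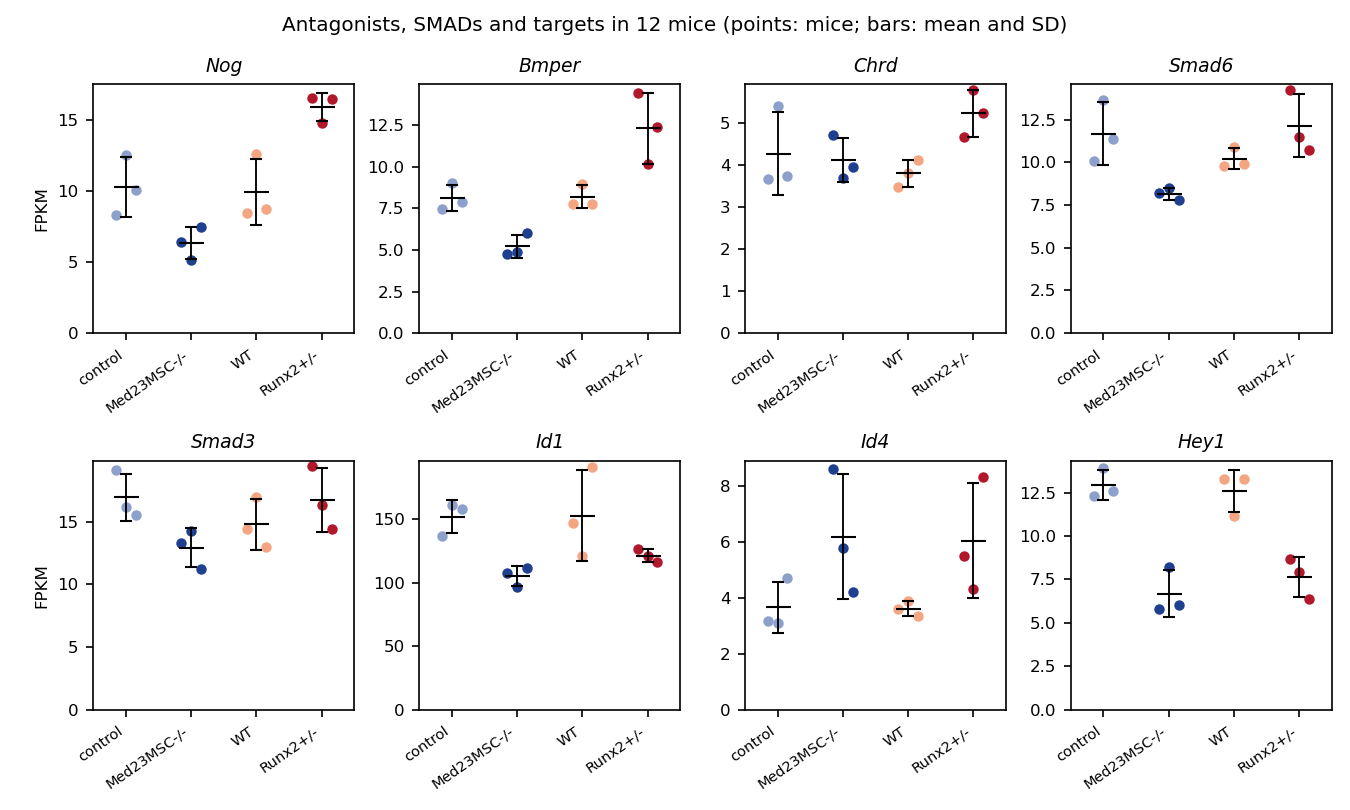
FPKM of the antagonists *Nog*, *Bmper* and *Chrd*, of *Smad6* and *Smad3* and of the target genes *Id1*, *Id4* and *Hey1* in the 12 mice by group, with 1 point per mouse and bars for mean and SD (n = 3). *Nog* and *Bmper* lie below their littermates in Med23MSC-/- mice and above them in Runx2+/- mice, and *Hey1* lies below in both.

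Of the ID targets, *Id1* came nearest to the threshold. The gene, at chr2:152736251-152737410, was at 137, 161 and 158 FPKM in control mice (mean 152 ± 13.2) and 108, 96.7 and 111 FPKM in Med23MSC-/- mice (mean 105 ± 7.6). Every mutant lay below every control mouse, with a ratio of means of 0.691 (log2 fold change -0.53, standard error 0.10, limma adjusted p = 0.0504). *Id1* passed in 2 of 12 alternatives, at an adjusted p of 0.0432 after rescaling to the same sum and 0.0496 with all 12 mice in 1 fit. With any 1 mouse left out, the adjusted p was between 0.0775 and 0.174. In the male libraries alone the change was -0.38. For Runx2+/- against WT mice, *Id1* was at 147, 121 and 191 FPKM in WT mice (mean 153 ± 35.6) and 126, 121 and 116 FPKM in Runx2+/- mice (mean 121 ± 5.05). The means lay in the same direction and the groups overlapped (-0.31, 0.16, adjusted p = 0.407). The difference between the sets was -0.22 (0.20, adjusted p = 0.657). *Id4*, the lowest of the family and the one known to favour osteoblast over adipocyte differentiation, lay the other way. *Id4* was at 3.17, 3.11 and 4.71 FPKM in control mice (mean 3.66 ± 0.904) and 8.61, 5.77 and 4.2 FPKM in Med23MSC-/- mice (mean 6.19 ± 2.23). In the other comparison it was at 3.59, 3.88 and 3.35 FPKM in WT mice (mean 3.6 ± 0.266) and 5.5, 4.31 and 8.34 FPKM in Runx2+/- mice (mean 6.05 ± 2.07). The log2 fold changes were 0.60 (0.24, adjusted p = 0.213) and 0.58 (0.19, adjusted p = 0.2). The Runx2+/- mice lay above all WT mice, and the Med23MSC-/- mice overlapped with the controls. In each mutant group 1 mouse (mouse 1 and mouse 3) stood well above the others, and without it the log2 fold changes were 0.36 and 0.35 (adjusted p = 0.44 and 0.236). *Id2* (0.07 in both sets) and *Id3* (-0.14 and -0.03) overlapped throughout, so the family had no common direction.

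A wider list of 57 further pathway genes, 49 of them tested, was read in the same fits. In the *Med23* set 13 (26.5%) had an unadjusted p under 0.05, 4 higher and 9 lower, against 21.3% of all genes (15.7% higher and 5.63% lower). Of the 49, 1 passed adjustment (2.04%, against 1.57% of all genes). In the *Runx2* set 9 (18.4%) had an unadjusted p under 0.05, 8 higher and 1 lower, against 15.4% of all genes (7.09% higher and 8.32% lower). There 2 of the 49 passed adjustment (4.08%, against 1.89% of all genes). Counts of 1 and 2 are too small to set the list apart. *Hey1*, a Notch and BMP target that represses transcription, passed in both. It was at 12.3, 13.9 and 12.6 FPKM in control mice (mean 12.9 ± 0.839) and 5.81, 8.24 and 6.01 FPKM in Med23MSC-/- mice (mean 6.69 ± 1.35). Every mutant lay below the controls (log2 fold change -0.87, standard error 0.13, limma adjusted p = 0.0359). The *Runx2* set had 13.3, 11.2 and 13.3 FPKM in WT mice (mean 12.6 ± 1.21) and 8.67, 7.91 and 6.39 FPKM in Runx2+/- mice (mean 7.66 ± 1.16). There, too, every mutant lay below (-0.65, 0.12, adjusted p = 0.0467). *Hey1* thus fell in both sets without overlap. With 1 mouse left out, whichever it was, the adjusted p rose to between 0.0513 and 0.133 in the first set and 0.0662 and 0.184 in the second. In the male libraries it was 0.204 and 0.184, with log2 fold changes of -0.81 and -0.62. With no filter on low values it was 0.0877 in the *Med23* set and 0.145 in the *Runx2* set. The call in the *Runx2* set was also lost after rescaling (0.0759), with the replicate block (0.0962) and with all 12 mice in 1 fit (0.0536). *Msx2*, a homeobox target of BMP signalling in the skull vault, rose in Runx2+/- mice, at 9.6, 10.1 and 9.99 FPKM in WT mice (mean 9.88 ± 0.245) and 17.3, 14.4 and 13.4 FPKM in Runx2+/- mice (mean 15 ± 2.01). All mutants lay above the WT mice (0.55, 0.10, adjusted p = 0.0474). Its adjusted p was between 0.0568 and 0.184 with any 1 mouse left out. The call was lost as well after rescaling (0.088), with the replicate block (0.111), with all 12 mice in 1 fit (0.0988), with no filter (0.133) and in the male libraries (0.184), and of the alternatives run it held only with a pseudocount of 0.1. Its change in the *Med23* set was 0.21 (adjusted p = 0.502).

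*Bmper*, a secreted BMP-binding protein that can block or promote BMP signalling, repeated the pattern of *Nog*. It was at 7.47, 9.01 and 7.85 FPKM in control mice (mean 8.11 ± 0.798) and 4.73, 4.9 and 5.99 FPKM in Med23MSC-/- mice (mean 5.21 ± 0.682). Against this stood 7.78, 8.98 and 7.79 FPKM in WT mice (mean 8.18 ± 0.692) and 14.4, 10.1 and 12.4 FPKM in Runx2+/- mice (mean 12.3 ± 2.13). Mutants lay wholly below their littermates in the *Med23* set (-0.56, standard error 0.12, limma adjusted p = 0.0662) and wholly above them in the *Runx2* set (0.53, 0.13, adjusted p = 0.0941). The difference of -1.08 (0.18, adjusted p = 0.0481) passed the threshold, the only one of the members and further pathway genes to do so. The call was lost without control mouse 2 (0.121) or 3 (0.0934), Med23MSC-/- mouse 1 (0.119), WT mouse 1 (0.105) or 3 (0.141) or Runx2+/- mouse 1 (0.113) or 3 (0.117), where the numbers are adjusted p-values. It was lost with the replicate block (0.0548) and with no filter (0.109), too. In the male libraries the adjusted p was 0.254 with a difference of -0.95. *Tll1*, a protease that cleaves chordin, was at 3.59, 2.92 and 2.79 FPKM in control mice (mean 3.1 ± 0.432) and 1.9, 1.72 and 1.51 FPKM in Med23MSC-/- mice (mean 1.71 ± 0.196). All mutants lay below (-0.60, 0.13, adjusted p = 0.071). In the *Runx2* set the groups overlapped (0.08, adjusted p = 0.847), and the difference was -0.68 (adjusted p = 0.127). *Ltbp2*, a latent TGF-beta binding protein family member, was at 9.02, 11.2 and 8.78 FPKM in WT mice (mean 9.67 ± 1.33) and 13.5, 15.7 and 13.5 FPKM in Runx2+/- mice (mean 14.2 ± 1.28). All mutants lay above (0.52, 0.11, adjusted p = 0.0699). Its change in the *Med23* set was nearly the same, though with overlap (0.50, adjusted p = 0.21), and was 0.88 in the male libraries (adjusted p = 0.149) and 0.30 without control mouse 1. The difference between the sets was -0.02 (adjusted p = 0.976). *Sost*, the sclerostin gene of osteocytes, was picked after its values had been seen, and it was at 13, 17.4 and 18.1 FPKM in control mice (mean 16.2 ± 2.74) and 4.72, 6.2 and 10.3 FPKM in Med23MSC-/- mice (mean 7.07 ± 2.88). All mutants lay below the controls (-1.14, 0.25, adjusted p = 0.0715). In the *Runx2* set its groups overlapped with a change of 0.33 (adjusted p = 0.549), and the difference of -1.46 missed the threshold (adjusted p = 0.0975).

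The windows upstream of *Bmper* and *Chrd* are shown because *Bmper* carried the called difference and *Chrd* the same direction as *Nog* and *Bmper* in Runx2+/- mice. They lie at chr9:23222826-23223075 and chr16:20732877-20733126, both on the plus strand of GRCm38.p6, and the capitals mark the same 3 motifs as above.
Bmper: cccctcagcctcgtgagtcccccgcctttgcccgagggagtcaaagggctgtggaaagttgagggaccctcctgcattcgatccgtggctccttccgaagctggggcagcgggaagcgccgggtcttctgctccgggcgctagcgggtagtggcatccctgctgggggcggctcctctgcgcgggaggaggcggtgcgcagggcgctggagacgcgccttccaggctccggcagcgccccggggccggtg
Chrd: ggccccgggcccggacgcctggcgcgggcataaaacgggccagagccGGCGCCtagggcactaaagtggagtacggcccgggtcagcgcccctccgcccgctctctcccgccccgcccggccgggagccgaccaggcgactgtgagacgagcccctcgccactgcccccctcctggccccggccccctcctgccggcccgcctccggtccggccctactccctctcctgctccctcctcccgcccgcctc
*Bmper* held none of the motifs here, and *Chrd* held 1 GGCGCC that begins 203 bases before its start. *Nog* and *Id1* have no entry in the table.

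Markers of several cell types differed between the genotypes as well. All 10 osteoblast markers were below 0 in the *Med23* set (median log2 fold change -0.49, 1 passing adjustment), with sums of 25895 to 33639 FPKM in Med23MSC-/- against 49507 to 52325 FPKM in control mice. In the *Runx2* set 6 of 10 were above 0 (median 0.06), with sums of 30223 to 39014 FPKM in Runx2+/- against 39741 to 46360 FPKM in WT mice. The 6 osteoclast markers were all below 0 in both sets (medians -0.40 and -0.64), with 0 and 2 passing adjustment. The 9 tested muscle markers were all above 0 in the *Med23* set (3.03), with 0 passing. All 9 fell in the *Runx2* set (-4.84), where all 9 passed. Among the lists below, 1 chondrocyte marker passed as lower in the *Med23* set, as did 3 of smooth muscle and pericytes (2 higher and 1 lower). In the *Runx2* set 1 endothelial marker passed as lower. The other lists had median log2 fold changes, in the *Med23* and the *Runx2* set, of -0.89 and -0.14 (osteocytes), -0.41 and 0.52 (chondrocytes), -0.13 and -0.25 (endothelial cells) and 0.76 and 0.57 (smooth muscle and pericytes). They were -0.43 and -1.08 for erythroid cells, -0.12 and -0.05 for macrophages, 0.45 and 0.08 for neurons and glia, 0.29 and 0.33 for epidermis (1 gene tested) and -0.08 and -0.93 for adipocytes. No marker of these lists was at 0 in every mouse of a group. The part of these differences in the values of *Tgfb1*, *Smad6*, *Nog*, *Id1* and the other members was not tested, and in bulk tissue fewer cells of a type cannot be told apart from less RNA per cell. The kit does not mark strand, so reads of *Bmp4*, *Bmp5*, *Bmp6*, *Gdf5*, *Tgfb2*, *Tgfb3*, *Bmpr1a*, *Acvr2a*, *Chrd*, *Fst*, *Id4* and *Ltbp2* cannot be told apart from those of genes on the opposite strand over their exons, whereas *Nog*, *Bmper*, *Smad6*, *Id1* and *Hey1* have no annotated gene there on that strand.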

How the data were processed

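The authors deposited 1 FPKM value per RefSeq transcript and mouse, from Illumina TruSeq libraries of total RNA. No source states the unit, and FPKM is a reading of the values, which follow both the length of a transcript and the depth. The submitters' processing notes name Bowtie 0.12.8 and the mm10 build without a role, and the program that made the FPKM values is not given in the sources used here. Transcripts were assigned to genes through the NCBI gene table of GRCm38.p6 (29835 of 30411 transcripts) or GENCODE M21 (180), 396 kept their identifier, and the deposited FPKM of a gene's transcripts were added up. FPKM sums were 891329 to 1068933 per mouse. The rough depth of 7760000 to 11700000 fragments was read from the smallest products of FPKM and length, with GENCODE lengths, and limits the precision of low genes.

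Genes reaching 1 FPKM in 3 or more mice were tested on log2 of FPKM plus a pseudocount of 1, on which scale the changes of low genes are understated. Each mutant group was compared with its littermates in its own limma fit (6 mice, trended variances, no covariates), with two-sided p-values adjusted by Benjamini-Hochberg over all 13059 genes. The difference between the sets was an interaction contrast over 12 mice. The fit was also run on simulated data with independent noise and known changes larger than those of any member in either set. That run does not show how well changes of the members' size are found. Alternatives were a pseudocount of 0.1, no filter, rescaling to the same sum, a replicate block, 1 fit of 12 mice, male libraries only and each mouse left out. The members, the 57 further genes and the marker lists (*Cd68* had no value) were chosen with earlier results of these data known. Members are given in full if their groups did not overlap with an unadjusted p under 0.05, if they passed adjustment, or if they changed most in their class and set (16 genes). Of the further genes, those that passed and the 3 with the smallest p per set are named (5 genes). Columns other than FPKM were not used. Batches and dates are not given in the sources used here, so no within-batch value could be had. Promoters come from RefSeq, and lack entries for *Bmp2*, *Bmp3*, *Bmp7*, *Gdf5*, *Tgfb3*, *Tgfbr3*, *Smad2*, *Smad4*, *Smad7*, *Nog*, *Bambi*, *Fst* and *Id1*. Tools were R 4.3.3, limma 3.58.1, Python 3.11.15, pandas 2.3.3, numpy 2.4.6 and matplotlib 3.10.9.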

Additional observations from a re-analysis of the deposited data

Results flagged for a closer look

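2 genes are listed because their mutants lay on opposite sides of their littermates in the 2 sets. For *Nog*, all 3 Med23MSC-/- mice lay below their littermates and all 3 Runx2+/- mice above theirs, and the change in the first set minus that in the second was -1.27 on the log2 scale, with an adjusted p of 0.0588 in the limma interaction contrast, which misses the threshold. For *Bmper*, the mice lay in the same opposite directions, and the difference was -1.08, with an adjusted p of 0.0481 that passes it. The 3 female libraries were all among the littermates, and without them the differences were -0.91 and -0.95 (adjusted p = 0.301 and 0.254).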

How the results depend on the processing

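Under none of the alternatives run did a called value of a named gene change its sign. With no filter on low values the fit of all genes called 1 gene in the *Med23* set, 5 in the *Runx2* set and 6 in the difference, against 205, 247 and 20. With values rescaled to the same sum, 107 genes were called in the *Med23* set and 37 in the difference. In the *Med23* set 1 member (*Id1*) then passed and 8 members had an unadjusted p under 0.05 (22.2%, against 16.9% of all genes). The median of the members in that set was -0.0315. With all 12 mice in 1 fit, 717 and 95 of the 13059 tested genes were called. Of the 36 tested members, 6 passed in the *Med23* set (*Bmp6*, *Bmpr1a*, *Id1*, *Smad6*, *Tgfb1* and *Tgfb2*) and 0 in the *Runx2* set. In the male libraries 0 (2153 at an unadjusted p under 0.05), 34 and 1 genes were called. With 1 mouse left out, the called genes ranged from 0 to 35, from 34 to 169 and from 2 to 164, and the members called were 0 in the *Med23* set, 0 to 1 in the *Runx2* set (*Nog*, without WT mouse 2) and 0 to 1 in the difference (*Nog*, without control mouse 1 or WT mouse 2). Deviations of mice with the same replicate number correlated at 0.18, 0.259 and 0.0527 in the *Med23* set. Mice with different numbers lay lower there, at -0.201 to 0.0297. In the *Runx2* set the same numbers gave 0.00482, -0.0474 and -0.0836, no higher than different numbers (-0.0648 to 0.104). The *Runx2* set thus showed no sign of pairing by number. With 3 mice a group, these values cannot settle whether the numbers pair the mice of the *Med23* set. The replicate block gave 273, 90 and 136 called genes, 0 members called and unmoved medians of 0.06 and 0.13. At an unadjusted p under 0.05 it gave 9 members in the *Med23* set (25%, against 21.2% of all genes). In the *Runx2* set it gave 6 (16.7%, against 14% of all genes). The causes were not tested. With 3 mice a group and 7760000 to 11700000 fragments, small changes of members near 1 FPKM, such as *Gdf5* and *Inhba*, were not detectable.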
